A study of Rattus norvegicus with 29 samples.

Results

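The 200 steadiest transcripts of rat kidney tubule cells were described across 4 compounds and 2 exposure times. They were chosen by their deposited TPM, a level that is scaled to transcript length and sums to the same total in every library. For each transcript, 9 log2 ratios of group mean TPM (each mean + 1) were formed: the 8 ratios of a compound to the control of its own time, and the ratio of control at 24 h to control at 6 h. Of 28420 transcripts, 6168 had a mean of 20 to 500 TPM over the 5 control libraries. This pool was ranked by the largest of the 9 absolute ratios, and the 200 lowest were taken, 3.24% of the pool. All 200 passed the filter on low counts. The values that chose the members, and any test of the same contrasts, are given as a description and support nothing about the members.

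The cells were primary rat renal proximal tubule epithelial cells, which line the first segment of the nephron. Each group was a culture condition: control, the painkiller acetaminophen, the aminoglycoside gentamicin, the dioxin TCDD (a ligand of the aryl hydrocarbon receptor) or the solvent trichloroethylene, at 6 h or 24 h. Every group had 3 libraries except control at 6 h, which had 2 (replicates 2 and 3). The sources used here do not give doses, vehicles or whether replicates came from separate animals, so an SD or p-value covers only the spread between these libraries. The libraries held 8243698 to 11446612 estimated counts. Replicate 2 of TCDD at 24 h stood apart from the other libraries of its group (pool median -0.60 relative to control on the log2 TPM scale, against -0.40 and -0.27). The edgeR counts of calls in its contrasts, its group's ratio medians and spread, and the component shares are also given without it. Other values that use it are given with it only. Among these are the SD pooled over groups, the SD of group means, the length bands and the calls per member.

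Transcripts that hold a constant level are commonly those of genes every cell needs, such as parts of the ribosome, the proteasome or the splicing machinery, and they serve as internal references when other genes are measured. The proximal tubule reabsorbs filtered solutes and takes up many drugs, which is why it is a common site of toxic injury. The deposited tables give Ensembl transcript numbers without gene names, so no role can be given for a member and the cell type could not be checked against its markers. Fewer transcripts per cell and fewer cells cannot be told apart in RNA from whole cultures.

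Few pool transcripts kept all 9 ratios small on the TPM scale that the rule used, and the number of members was set by it. The largest of the 9 ratios had a median of 1.03 over the pool, a 2.04-fold change, and exceeded 1 for 3238 of the 6168 transcripts (52.5%). Among the members it ran from 0.10 to 0.39, which is a change of 1.07-fold to 1.31-fold. Only 4 members stayed at or under 0.2 in all 9 ratios, 60 at or under 0.3 and 117 at or under 0.35. The limit of 0.45 in the rule was not reached, since 375 transcripts lay at or under it. At the edge of the list the values were continuous: 0.3912 at rank 200 and 0.3914 at rank 201. The 200 are thus the lower end of a continuous distribution and no separate class.

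**Figure D1:**
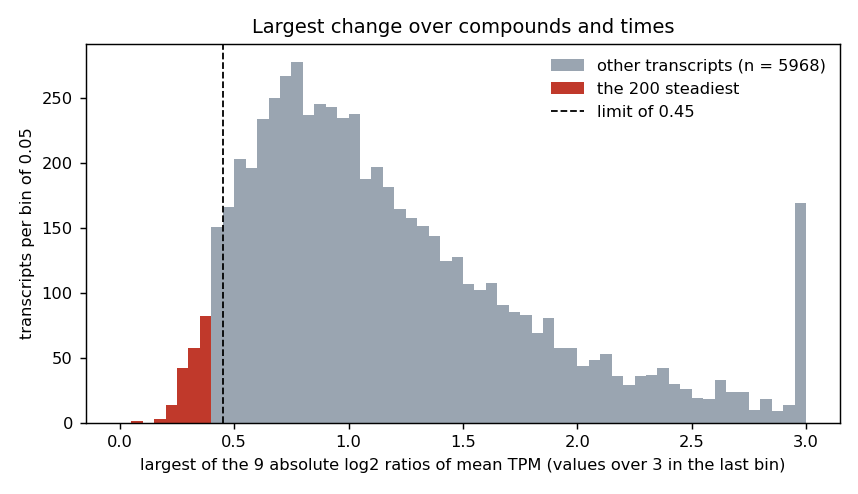
Histogram of the largest of the 9 absolute log2 ratios of mean TPM for the 6168 transcripts of 20 to 500 control TPM, with the 200 steadiest in red and the limit of 0.45 dashed. The members occupy the low end, up to 0.39, of a distribution with its median at 1.03.

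The steadiest transcript of all was ENSRNOT00000023900, of 2143 bases, with a mean control level of 28.7 TPM. At 6 h it stood at 27.4 and 28.2 TPM in the controls, at 30.03, 28.5 and 28.4 TPM with acetaminophen, and at 25.3, 29.1 and 29.2 TPM with gentamicin. With TCDD it was at 28.1, 26.1 and 29.7 TPM, and with trichloroethylene at 30.1, 27.2 and 28.7 TPM. The treated libraries lay on both sides of the controls for every compound except acetaminophen, whose libraries were all above them.
At 24 h its levels were 28.7, 28.9 and 30.5 TPM in controls, 30.2, 27.8 and 27.4 TPM with acetaminophen, and 31.2, 29.7 and 30.2 TPM with gentamicin. TCDD gave 27.6, 25.2 and 29.6 TPM, and trichloroethylene 29.7, 31.1 and 27.3 TPM. All groups overlapped the controls. Its largest ratio, -0.10, was that of TCDD at 24 h. Over the 29 libraries its lowest and highest TPM differed 1.24-fold, the narrowest range of any member, on 355 to 589 estimated counts per library.

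The most abundant member was ENSRNOT00000015886, of 1737 bases, ranked 137, with a mean control level of 490 TPM. Its levels at 6 h were 473 and 490 TPM in controls, 380, 390 and 393 TPM with acetaminophen, 512, 555 and 571 TPM with gentamicin, 510, 485 and 604 TPM with TCDD, and 547, 592 and 549 TPM with trichloroethylene. The acetaminophen libraries were all below the controls, and those of gentamicin and trichloroethylene all above. At 24 h it stood at 483, 532 and 474 TPM in controls, 416, 380 and 497 TPM with acetaminophen, 610, 640 and 659 TPM with gentamicin, 472, 488 and 530 TPM with TCDD, and 390, 429 and 405 TPM with trichloroethylene. Gentamicin libraries were all above the controls, trichloroethylene libraries all below, and the other compounds overlapped them. The ratio of gentamicin, 0.36, was its largest. A member of the list can therefore still have groups that do not overlap.

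The transcripts on each side of the edge differed in where they moved. ENSRNOT00000015161 at rank 200, of 1834 bases and 25.6 TPM in controls, had 28.6, 28.5 and 23.9 TPM in the 24 h controls and 21.9, 18.5 and 20.6 TPM with trichloroethylene, a ratio of -0.39. All trichloroethylene libraries lay below the controls. ENSRNOT00000050562 at rank 201, of 1175 bases and 122 TPM, had 120, 122 and 111 TPM in the 24 h controls and 88.8, 91.7 and 87.3 TPM with gentamicin, also a ratio of -0.39 and also without overlap. Its replicates were close, with an SD of 0.05 on the log2(TPM + 1) scale, against 0.13 for the transcript at rank 200.

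**Figure D2:**
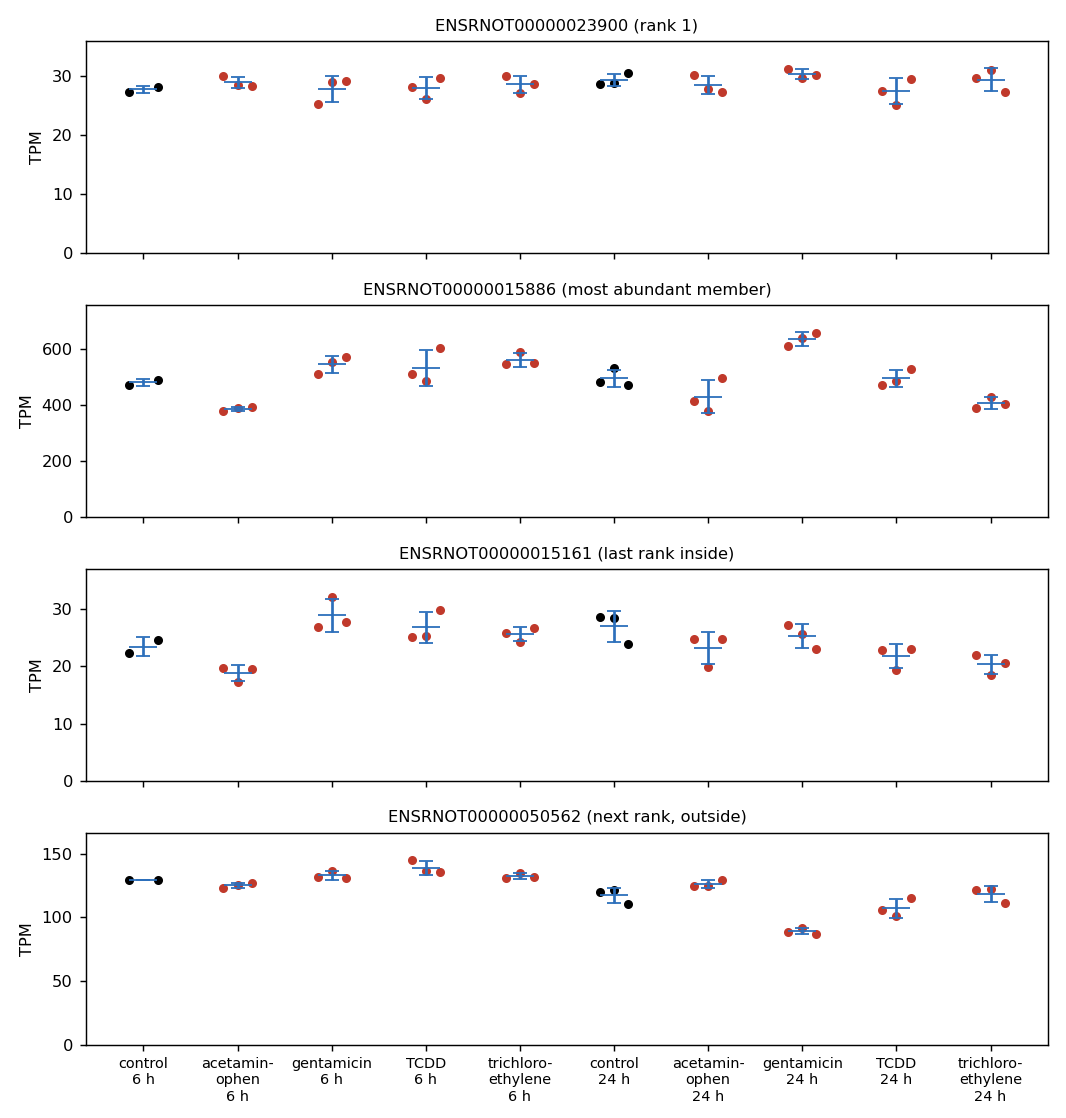
TPM (linear axis from 0) of 4 transcripts in each of the 29 libraries, by group: points are libraries, controls in black, and blue marks are the group mean with its SD (n = 3, control at 6 h n = 2). ENSRNOT00000023900 stays between 25.2 and 31.2 TPM in all libraries, while ENSRNOT00000015886 runs from 380 to 659 TPM.

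Steady group means did not always mean steady libraries. The member of rank 2, of 3111 bases, had a TCDD ratio of only 0.04 at 24 h, but its TCDD libraries stood at 59.0, 40.7 and 63.6 TPM beside 53.3, 56.2 and 49.5 TPM in controls. Replicate 2 was below every control and the other libraries above. The member of rank 172, of 3204 bases, had the widest range of the list, 3.21-fold in TPM, from 18.2 TPM in replicate 2 of TCDD at 24 h to 58.3 TPM in replicate 2 of TCDD at 6 h. Without that library of TCDD at 24 h the range was 2.51-fold. Its 6 h controls, 28.8 and 42.9 TPM, were themselves far apart. The member of rank 182, of 773 bases, had the largest spread between replicates and the fewest counts, 43 to 184 per library. Its level ran from 13.4 TPM in a gentamicin library to 35.5 TPM in a TCDD library, both at 24 h.

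Across the 9 ratios, the members' medians lay near 0 (the plot of ratios by comparison). At 6 h acetaminophen gave -0.11, gentamicin 0.05, TCDD 0.07 and trichloroethylene 0.10, close to the pool medians of -0.17, 0.07, 0.12 and 0.12. At 24 h they were 0.12, -0.03, 0.02 and -0.02 in the same order, beside pool medians of 0.03, -0.17, -0.45 and -0.06. Control at 24 h against 6 h gave 0.03 for the members and 0.08 for the pool. The gap between members and pool was widest for TCDD at 24 h, at 0.47. Without replicate 2 of TCDD the medians were 0.09 for the members and -0.37 for the pool, a gap of 0.46.

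The comparisons differed in how many transcripts they left near control. Only 2249 pool transcripts (36.5%) were within 0.45 of control for TCDD at 24 h, followed by 2968 (48.1%) for gentamicin at 24 h, 3098 (50.2%) for acetaminophen at 24 h and 3527 (57.2%) for acetaminophen at 6 h. Without replicate 2 of TCDD at 24 h, the first of these shares was 38.1%, and 3 members lay outside 0.45. For TCDD at 6 h the share was 97.0%. The largest ratio of a member fell in a 24 h compound comparison for 130 members, with 41 in that of acetaminophen, 35 gentamicin, 30 TCDD and 24 trichloroethylene. It fell in a 6 h comparison for 55, of which 33 were for acetaminophen, and in the control comparison for 15. The largest ratio of 2 members was that of TCDD at 6 h.

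**Figure D3:**
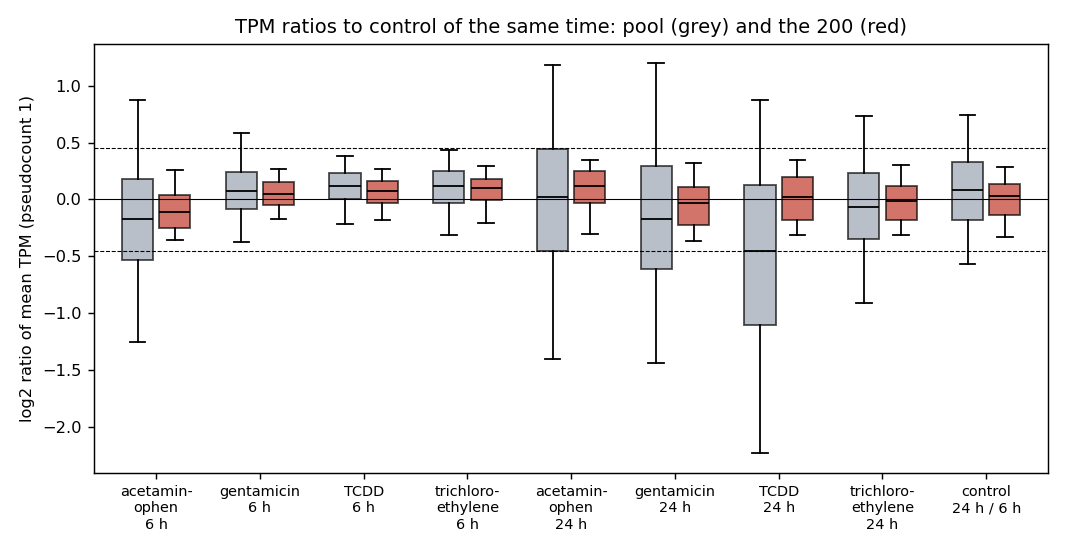
Log2 ratio of group mean TPM (pseudocount 1) in the 9 comparisons, for the pool of 6168 transcripts (grey) and the 200 members (red): boxes are quartiles with the median, whiskers the 5th to 95th percentile, dashed lines the limit of 0.45. The pool median for TCDD at 24 h is -0.45, while that of the members is 0.02.

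Single libraries make up the group means that the rule kept near control, so their closeness is largely fixed by it. Of 5800 member values (200 members in 29 libraries), 5703 (98.3%) were within 0.5 of the member's mean log2(TPM + 1) over the control libraries; in the rest of the pool the share was 73.3%. Without replicate 2 of TCDD at 24 h it was 98.5% of member values. The exceptions were spread over many treated libraries, with the most in those named next. In replicate 3 of acetaminophen at 24 h, 15 members were more than 0.5 above and 1 below; in replicate 2 of TCDD at 24 h, 13 were below and 0 above; in replicate 3 of TCDD at 24 h, 10 were above and 3 below. With gentamicin at 24 h, replicate 2 had 4 above and 4 below, and replicate 3 had 0 above and 8 below. All 5 control libraries held 200 of 200 members within 0.5 of their own mean. Over all 29 libraries, lowest and highest TPM + 1 differed at most 2-fold for 179 members and for 462 of the 5968 other pool transcripts (7.74%). The median range of TPM + 1 was 1.72-fold for members and 3.44-fold for the others.

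The spread between replicates was also small in the members. The SD between replicates of log2(TPM + 1), pooled over the 10 groups, had a median of 0.12 (quartiles 0.09 and 0.14) in members and 0.16 (quartiles 0.12 and 0.20) in the rest of the pool. It lay under the pool median for 175 members and over the pool's upper quartile for 6. A noisy group mean makes a large ratio likelier, so a small spread is partly fixed by the rule and was not tested. The counting error expected from the members' median of 695 estimated counts is smaller, with a median of 0.05 on this scale, and it covers counting only. By group, the members' median SD ran from 0.05 in control at 6 h and 0.06 for acetaminophen at 6 h to 0.15 for TCDD at 24 h. In the rest of the pool it was 0.05, 0.07 and 0.22 in the same groups. Without replicate 2 the TCDD values were 0.08 for members and 0.12 for the rest. An SD from 2 libraries tends to be smaller than an SD from 3. These values, and those of control at 6 h, are therefore not directly comparable with the other groups.

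Even so, the group means of most members varied more than their replicates. The SD of the 10 group means exceeded the SD between replicates for all but 21 members, and the ratio of the former to the latter had a median of 1.52. In the rest of the pool it had a median of 2.77, and 78 of 5968 transcripts (1.31%) had group means closer than their replicates.

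Level differed between members and pool within the limits of the rule. The median control level of members was 63.0 TPM (quartiles 35.8 and 119), beside 46.1 TPM (29.2 and 84.3) for the others. This direction held for the list chosen on TPM: a list of 200 chosen on TMM-scaled values (counts per length, scaled by the factors described below) had a median of 43.5 TPM. Members made up 2.09% of the transcripts at 20 to 30 TPM (34 of 1623), 2.62% at 30 to 50 TPM, 3.58% at 50 to 100 TPM, 5.61% at 100 to 200 TPM (46 of 820) and 4.24% at 200 to 500 TPM (20 of 472). The spread between replicates fell with level in both sets. In members its median was 0.13 at 20 to 30 TPM and 0.09 at 200 to 500 TPM, and in the others 0.17 and 0.13, so members had the smaller spread in each of these bands. These are shares of transcripts, which are not independent of each other, and no test was made.

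**Figure D4:**
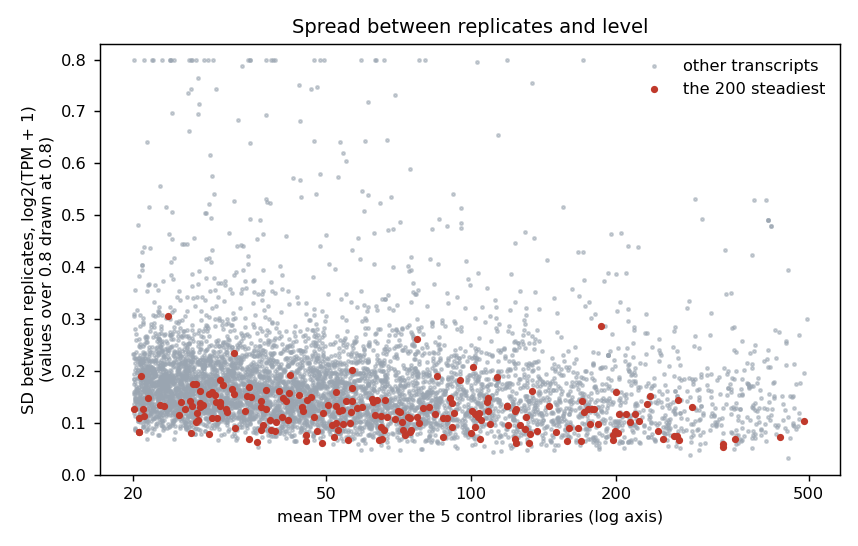
SD between replicates of log2(TPM + 1), pooled over the 10 groups, against mean control TPM (log axis) for the 200 members (red) and the other pool transcripts (grey); values over 0.8 are drawn at 0.8. Most members lie in the lower part of the cloud, with a median of 0.12 beside 0.16.

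Transcript length, which the rule did not use, was of middle size in the members. Its median was 1732 bases (quartiles 1197 and 2427, range 348 to 5019) beside 1804 bases (1172 and 2827, range 78 to 16330) in the others. The list chosen on TMM-scaled values had a median of 2010 bases, so the order of the medians turned with the scale. Members were 3.50% of transcripts of 500 to 1000 bases, 3.84% at 1000 to 2000 bases and 3.58% at 2000 to 4000 bases. They were 1.12% below 500 bases (4 of 356) and 1.01% at 4000 to 8000 bases (6 of 595). No member reached 8000 bases among 58 pool transcripts. The upper bound by counting, 5.17%, treats these transcripts as independent, which they are not.

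Short and long pool transcripts were also those with larger ratios. The median of the largest ratio was 1.40 below 500 bases, 0.95 at 1000 to 2000 bases, 1.26 at 4000 to 8000 bases and 1.67 from 8000 bases. For TCDD at 24 h the pool's median ratio was -0.20 at 1000 to 2000 bases and -1.10 at 4000 to 8000 bases. The members' medians in these bands, 0.02 and 0.03, are held near 0 by the rule, and the second rests on 6 members. For acetaminophen at 24 h the pool medians in these bands were 0.10 and -0.21. The shortest transcripts had few reads, with a median of 62 estimated counts below 500 bases. The fragment length of the libraries, measured from the difference between transcript length and effective length, was 230 to 238 bases with TCDD at 24 h and 270 to 289 bases in the 24 h controls. Its part in the length pattern was not tested.

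Some members share reads with similar transcripts. Estimated counts were whole numbers (within 0.001) in every library for 132 members (66.0%) and for 4138 of the others (69.3%). A count that is not whole shows that reads were divided between transcripts, so the level of 68 members depended in part on that division. The members of ranks 15 and 16 (2114 bases, 20.5 TPM) had the same level, spread and ratios as each other. So had those of ranks 130 and 131 (486 bases, 119 TPM). Both transcripts of each pair are included in every count and share of members, although their values are not separate measurements.

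Whether a member also counts as steady depends on the scale, above all for TCDD at 24 h. With edgeR's quasi-likelihood test on estimated counts, scaled by TMM factors (trimmed mean of M values, which centre most transcripts on no change), 151 of 200 members were called higher with TCDD at 24 h and 0 lower, at a Benjamini-Hochberg adjusted p under 0.05. Of all 15990 transcripts tested, 66.9% were called, 33.9% higher and 33.0% lower. At an unadjusted p under 0.05, 0 members were lower; DESeq2 called 0 lower and limma on log2(TPM + 1) called 41. This contrast is part of the rule, so the count describes the scale. The members' median log2 change was 0.43 in that fit, beside 0.02 over all transcripts tested, and 199 of 200 members were above 0. Without replicate 2 of TCDD, 133 were called, all higher (32.8% of all transcripts), and the median was 0.38. With library fragment length added as a covariate, 86 were called higher and 2 lower (median 0.26), and the share of all transcripts called, in either direction, was 48.3%. Fragment length did not overlap between these groups (230 to 238 bases with TCDD, 270 to 289 in the 24 h controls). The covariate therefore cannot cleanly separate fragment length from TCDD. On log2(TPM + 1) with limma, 39 were called higher and 41 lower, with 66.1% of all transcripts called.

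The levels per library show the same split (the plot of library medians). With TCDD at 24 h, the members' median difference from control was 0.05, -0.12 and 0.12 on the TPM scale and 0.35, 0.50 and 0.25 on the TMM scale, in replicates 1, 2 and 3. The pool's was -0.40, -0.60 and -0.27 on the TPM scale. By construction, TPM is proportional to the transcript's share of counts times the mean effective length of the library's counts, divided by the transcript's own effective length. That mean was 1050, 909 and 1130 bases in the TCDD libraries and 1180 to 1264 bases in the 24 h controls, a log2 ratio of group means of -0.25. Transcripts above 500 TPM in controls held 53.1%, 57.8% and 49.98% of all TPM in those TCDD libraries, beside 45.4% to 47.6% in the 24 h controls. The 200 members together held 1.85%, 1.76% and 1.93% of TPM with TCDD beside 1.77% to 1.83% in the 24 h controls, but 2.56%, 2.64% and 2.55% of counts beside 2.01% to 2.13%. The rule bounds the members' TPM ratios, so their kept share of TPM is set by it. By the relation above, a larger share of reads then goes with the lower mean effective length. Neither is a result about the members.

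**Figure D5:**
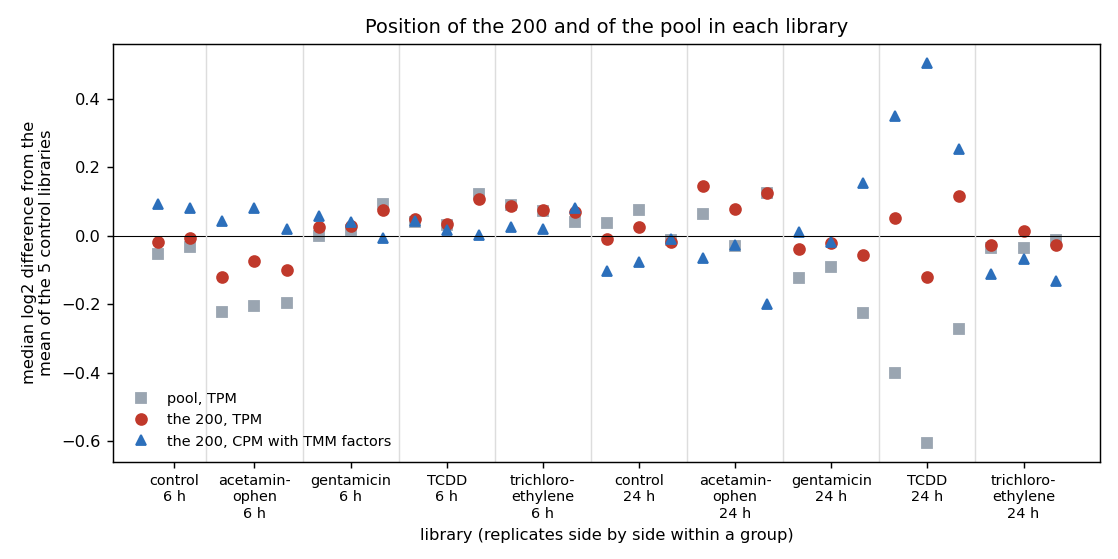
Median log2 difference from the mean of the 5 control libraries, in each of the 29 libraries, for the pool on the TPM scale (grey squares), the 200 members on the TPM scale (red circles) and the members as CPM with TMM factors (blue triangles). The member circles lie between -0.12 and 0.14, and the triangles of TCDD at 24 h reach 0.25 to 0.50.

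In the other comparisons with calls, edgeR called a smaller share of the members than of all transcripts. The members called were 49 for acetaminophen at 6 h (48.8% of all transcripts were called), 10 for gentamicin at 6 h (13.2%), 49 for acetaminophen at 24 h (59.4%), 68 for gentamicin at 24 h (59.6%) and 54 for trichloroethylene at 24 h (40.7%). For control at 24 h against 6 h it was 48, or 24.0%, beside 24.9% of all. For TCDD at 6 h and trichloroethylene at 6 h edgeR called 0 members (0.0% of all), DESeq2 0 and limma 0; at an unadjusted p under 0.05 there were 18 and 14 members, or 9.0% and 7.0%, beside 7.03% and 12.95% of all transcripts. The rule used all of these contrasts, so low counts follow from it. The members' median SE of a log2 change was 0.10 at 24 h for each compound and 0.11 at 6 h, beside 0.16 and 0.17 to 0.18 over all transcripts.

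The split of these calls into higher and lower also differed between alternatives. Total counts and median-of-ratios factors change only the scale, whereas limma on log2(TPM + 1) changes the test as well. For acetaminophen at 24 h, 8 members were called higher (30.3% of all transcripts) and 41 lower (29.2%) with TMM factors, but 84 and 11 with total counts and 59 and 23 on log2(TPM + 1). For gentamicin at 24 h the calls were 57 (29.1%) and 11 (30.5%), against 77 and 5 with median-of-ratios factors, 15 and 63 with total counts and 27 and 41 on log2(TPM + 1). For trichloroethylene at 24 h they were 16 (20.7%) and 38 (19.9%), against 32 and 18 with total counts and 17 and 30 on log2(TPM + 1). For acetaminophen at 6 h they were 21 (24.2%) and 28 (24.5%), against 10 and 38 on log2(TPM + 1). For gentamicin at 6 h they were 2 (8.34%) and 8 (4.88%), against 3 and 1 on log2(TPM + 1). For control they were 2 (12.3%) and 46 (12.6%), against 4 and 16 on that scale. With TMM factors and on log2(TPM + 1), more members were lower than higher for acetaminophen at 6 h, trichloroethylene at 24 h and control. For trichloroethylene at 24 h the order turned with total counts. With TMM factors, lower calls outnumbered higher ones in the tested pool too. The shares were 35.0% and 21.2% for acetaminophen at 6 h, 32.3% and 18.1% for trichloroethylene at 24 h, and 22.7% and 12.9% for control. For control, 23.0% of members were lower and 1.0% higher. Counts that use the 6 h controls rest on few libraries: for acetaminophen at 6 h the count of 49 was 20 without control replicate 2 and 19 without replicate 3. The gentamicin count of 10 at 6 h was 2 and 1 without these controls, and 6, 5 and 5 without gentamicin replicates 1, 2 and 3. The control count of 48 was 22 and 18 without the same 6 h libraries and 19 and 30 without 24 h control replicates 1 and 2.

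By member, 18 of 200 were called in 0 of the 9 comparisons (9.0%), beside 1264 of all 15990 tested (7.91%) and 108 of the 6163 tested pool transcripts (1.75%). The median was 2 calls for members and 4 for the pool, and no member had more than 5. For 31 members the single call was that of TCDD at 24 h. The steadiest transcript, ENSRNOT00000023900, had 2 calls, and its log2 change with TCDD at 24 h was 0.29 ± 0.09 (SE) on the TMM scale beside a TPM ratio of -0.10. The most abundant, ENSRNOT00000015886, had 5 calls; its TCDD change at 24 h was 0.41 ± 0.09 beside a TPM ratio of 0.00.

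Comparisons between compounds and between times follow from the same 9 ratios. On the TMM scale, uneven splits were not confined to TCDD at 24 h. From 6 h to 24 h with acetaminophen, 88 members were lower (21.5% of all) and 13 higher (21.3%). That was 50.5% in either direction, beside 42.8% of all and 51.6% of the tested pool. The members' shares were 44.0% lower and 6.5% higher, and the pool's 33.7% and 17.9%. With trichloroethylene, 74 were lower (23.1%) and 20 higher (24.5%). At 24 h, 84 were higher with gentamicin than with trichloroethylene (30.2%) and 23 lower (31.5%). The members' shares were 42.0% and 11.5%, and the pool's 39.25% and 30.1%. Between acetaminophen and trichloroethylene, 43 were higher (28.2%) and 43 lower (27.1%). The offset of TCDD at 24 h showed here too. Of the 200 members, 157 were called higher with TCDD than with trichloroethylene at 24 h (29.6% of all transcripts; 59.3% in either direction) and 0 lower at the adjusted threshold; without replicate 2 of TCDD it was 136 and 1. Between acetaminophen and TCDD at 24 h, 158 were lower with acetaminophen (34.2% of all) and 1 higher (34.5%; 68.7% in either direction), or 141 and 1 without that library. Between gentamicin and TCDD, 115 were lower with gentamicin (33.6% of all) and 15 higher (34.6%; 68.2% in either direction), or 101 and 16 without it. From 6 h to 24 h with TCDD, 126 were called higher (32.5% of all) and 6 lower (31.3% of all; 63.7% in either direction), or 109 and 6 without it.

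The residual variation within the list followed time, compound and library. The first component of the members' log2(TPM + 1) over the 29 libraries held 22.3% of their variance, and the second 19.1%, beside 33.8% and 22.2% in the rest of the pool. Without replicate 2 of TCDD at 24 h the members' shares were 22.4% and 20.1%. On the first, replicate 2 of TCDD at 24 h (2.75) lay farthest from replicate 3 of acetaminophen at 24 h (-2.55). The former had the most members more than 0.5 below control (13), and the latter the most more than 0.5 above (15). Libraries of some groups lay together on the first, at 1.49 to 2.08 for acetaminophen at 6 h. Trichloroethylene libraries scored -1.91 to -0.99 at 6 h and 1.17 to 1.64 at 24 h. Those of TCDD at 24 h were spread from -0.76 to 2.75. On the second, all 6 h libraries had negative scores, from -2.19 to -0.07, and of the 24 h libraries only replicate 2 of acetaminophen did (-0.27). Acetaminophen libraries at 6 h were the lowest, at -2.19 to -1.98, beside -1.32 or more in the other 6 h libraries.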

How the data were processed

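The submitters' processing notes name kallisto 0.43, a pseudoaligner. Per the file headers, each deposited table holds an estimated count, a TPM value, a length and an effective length (both in bases) for 28420 transcripts; 19.6% of the estimated counts were not whole. The sources used here do not give the transcript set, strand setting or trimming. The reference table held an Ensembl identifier for 0 genes, so gene lists and marker lists planned by name were not used and no sequence could be matched to a member.

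The members were chosen on the deposited TPM; the members, lists and tests were chosen with earlier results of these data known. By rule, 4 identifiers are printed: rank 1, the most abundant member, and the transcripts on each side of the edge. Members given by rank alone were chosen after their values were seen.

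Estimated counts were rounded, filtered with filterByExpr (minimum count 10) and scaled with TMM factors. All 10 groups entered 1 quasi-likelihood fit with robust dispersion in edgeR 4.0.16 (R 4.3.3; 19 residual degrees of freedom), adjusted over 15990 transcripts at 0.05. Alternatives used DESeq2 1.42.0, limma 3.58.1, other scales and each library left out. Where 1 control at 6 h remained, it was assumed to vary like the other groups. The steps were run on simulated data to check the code only. The simulations did not test the choice of scale. Replicates were not duplicates (chi-square 2.98 to 28.3 per degree of freedom). The labels give no sequencing batch.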

Additional observations from a re-analysis of the deposited data

How the results depend on the processing

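Membership changed most with the scale. With TMM-scaled values in place of TPM, 65 of the 200 members were again among the 200 steadiest, and with TPM centred on the pool median in each library 49 were, so that each list shares 32.5% and 24.5% with the other. The members' median TCDD ratio at 24 h was 0.37 on TMM-scaled values, and the list chosen on those values had a median TPM ratio of -0.34; the 65 shared members lay between, at -0.18 in TPM and 0.18 on TMM-scaled values. With other pseudocounts (0.1 and 5), group medians or other level limits, between 158 and 196 were shared. With 1 library left out, 162 to 199 were shared, fewest without replicate 3 of control at 24 h and 176 without replicate 2 of TCDD at 24 h. Of the 200, 78 were taken with each of the 29 libraries left out in turn, 75 of these also under the other pseudocounts, medians and level limits, and 35 of these also on TMM-scaled values.

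The count of members called moved by more than 1.5 times in these cases; the cause was not tested. In parentheses is the share of all tested transcripts called in the same fit. For gentamicin at 6 h, 10 (13.2%) became 17 (17.3%) with DESeq2, 5 (7.47%) with no low-count filter, 18 (19.7%) with the fragment length covariate and 4 (10.5%) with limma on log2(TPM + 1). For acetaminophen at 24 h, 49 (59.4%) became 95 (60.3%) with total counts and 82 (58.2%) with limma. For TCDD at 24 h, 151 (66.9%) became 88 (48.3%) with the covariate and 80 (66.1%) with limma. For control, 48 (24.9%) became 25 (14.1%) and 20 (21.7%) in the same order. With 1 library left out, the counts ran from 19 to 38 for acetaminophen at 6 h, 1 to 6 for gentamicin at 6 h and 18 to 52 for control. They ran from 39 to 55, 54 to 73, 133 to 163 and 40 to 54 for acetaminophen, gentamicin, TCDD and trichloroethylene at 24 h, and stayed at 0 for TCDD and trichloroethylene at 6 h.

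The replicate numbers did not pair the libraries: deviations from the group means of same-numbered libraries correlated between -0.15 and 0.08 over 22 pairs. With the replicate block, 151 members were called for TCDD at 24 h and 7 for gentamicin at 6 h, and no count moved by more than 1.5 times. The list chosen on TMM-scaled values had a median length of 2010 bases and a median control level of 43.5 TPM, beside 1732 bases and 63.0 TPM; both medians crossed those of the other pool transcripts. The median spread between replicates was 0.12 in log2 CPM with TMM factors and with a pseudocount of 0.1, as in the list itself. Values without replicate 2 of TCDD at 24 h, other than its counts against control and the membership, were chosen after seeing the data. Depth limits the thinnest members: 43 estimated counts, the lowest of any member in any library, carry a counting error of 0.22 on the log2 scale, and that member also had the largest spread between replicates.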
